A study of Mus musculus with 12 samples.

Results

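The Hox genes of the 4 mouse clusters were followed in kidney RNA and in a universal reference RNA, by cluster and paralogue number. They were taken as every gene whose single symbol in the array's probe annotation was Hox, a cluster letter from a to d and a number. This gave 33 of the 18193 genes that a probe set named alone, with 9 in cluster a, 9 in cluster b, 7 in cluster c and 8 in cluster d. Hox genes encode homeodomain transcription factors that give cells their position along the body axis. Within a cluster the genes lie in the order in which they act from head to tail, and adult tissues keep part of the pattern laid down in the embryo. In the mouse kidney, the paralogue 11 genes are known for their need in the formation of the metanephric kidney.

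By its title the series compared ways to amplify RNA from nanogram amounts, and 12 arrays were analysed. Kidney RNA from Ambion was assayed at 10 ng, and universal mouse reference RNA, whose supplier the labels spell Strategene, at 0.3, 3 and 10 ng, with 3 arrays in each group. All sample titles carry the code pRS, which the labels do not explain, and they give no strain, age, sex or treatment for the animals. A universal reference is a commercial pool made from several cell lines, so it stands for no single tissue. The labels do not say whether the arrays of a group came from separate RNA preparations, so p-values measure only the spread between arrays, which may be technical.

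Signals are linear intensities on a scale where the 2% trimmed mean of every array is 500, and differences are of log2(signal + 3.9). A signal of 33.65 was taken as background, the 95th percentile over 27 control probe sets for Bacillus genes that mouse RNA lacks. Between 33.2% and 42.4% of probe sets lay below it on an array, and how many arrays there are limits the precision. The kidney label was checked with markers of renal tubule cells and podocytes. Of 8 with a probe set, 7 were higher in kidney and 1, the podocyte gene Nphs1, was too dim to be tested, and the summed signal of the 8 was 40615.5 to 41575 in kidney against 421 to 548 in the reference at 10 ng. Uromodulin (Umod), made in the thick ascending limb, was at least 322-fold higher (limma adjusted p = 4.4e-05). Against the reference at 10 ng, the median difference of all 27022 tested probe sets was -0.34 on the log2 scale, and -0.09 with each array centred on its median. Calls are limma calls at an adjusted p of 0.05 over those probe sets.

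Of the 33 Hox genes, 26 were bright enough to be tested. At 10 ng of both RNAs, 13 were higher and 6 lower in kidney, with 7 not called. Over all tested probe sets 22.9% were higher and 37.2% lower, 60.1% in all, so a call in itself was common. The clusters had different counts. Cluster a had 4 genes higher and 1 lower of 7 tested, cluster b 5 and 1 of 7, cluster c 0 and 4 of 7, and cluster d 4 and 0 of 5. By position, 5 of 7 anterior genes (paralogues 1 to 3) were tested, and 1 was higher and 0 lower. Of 12 central genes (paralogues 4 to 8), 10 were tested, with 6 higher and 2 lower. Of 14 posterior genes (paralogues 9 to 13), 11 were tested, with 6 higher and 4 lower. The median difference over all 33 genes was 0.59 on the log2 scale, and 0.46 with signals under background raised to it. With all 12 arrays in one fit, which pools the wider spread of the 0.3 ng arrays, 10 of the 19 calls remained, and those of Hoxa5, Hoxa7, Hoxa9, Hoxa11, Hoxb2, Hoxb4, Hoxb5, Hoxb9 and Hoxb13 were lost, while Hoxa2 was called lower. In these bulk RNAs, fewer cells that use a gene and less RNA per cell cannot be told apart.

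**Figure D1:**
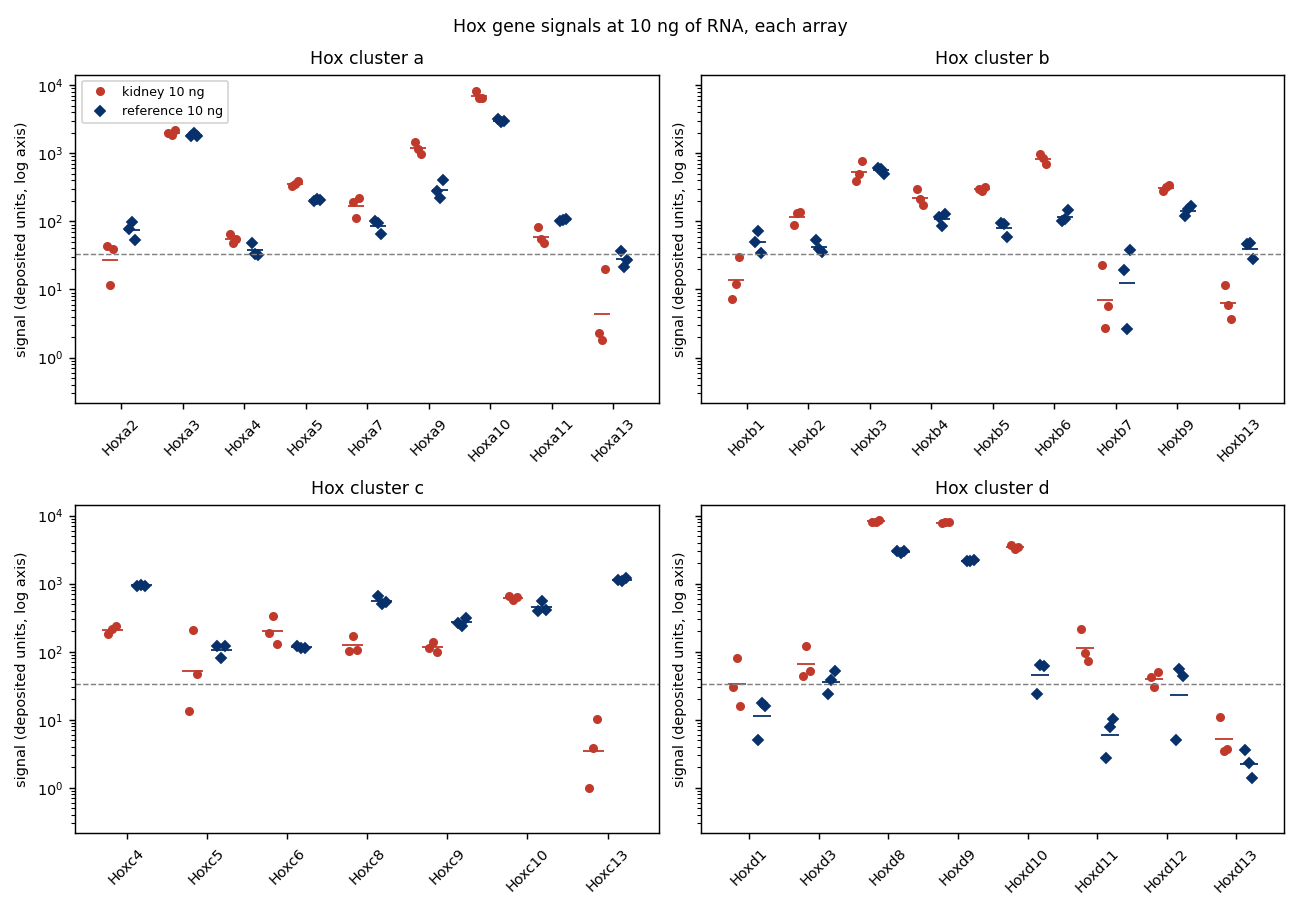
Signal of each Hox gene on each array at 10 ng, on a log axis in deposited units, with kidney (circles) left of the reference (diamonds), by cluster and paralogue number. Short bars are geometric means of 3 arrays and the dashed line is the background of 33.65. In cluster d the kidney arrays of Hoxd8 to Hoxd11 lie above the reference arrays, and in cluster c the kidney arrays of Hoxc13 lie below background.

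Cluster d, on chromosome 2, held the gene with the largest difference among those higher in kidney. Hoxd10, which patterns the hindlimb and lumbar motor neurons, had signals of 3641, 3284 and 3512 in kidney, against 23.6, 64.6 and 61.1 in the reference at 10 ng. Every kidney array lay far above every reference array, and 1 of the 3 reference arrays was below background. The difference was 6.13 ± 0.37 on the log2 scale (SE; limma adjusted p = 9.23e-05), and 6.09 with signals under background raised to it. Hoxd11 works with Hoxa11 in the forming kidney and in the forearm. Its signals were 212, 95.8 and 72.3 in kidney, against 2.7, 7.9 and 10.2 in the reference at 10 ng. All kidney arrays were above background and all reference arrays below it, so the difference is given as a bound, at least 3.38-fold higher in kidney (limma adjusted p = 0.00165). When dim probe sets were removed by their mean over the 12 arrays, in place of their brightest group, Hoxd11 was not tested.

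Hoxd9 acts in the limb and along the lumbar axis with its paralogues. It had 7837, 7916 and 7919 in kidney, against 2123, 2122 and 2222 in the reference at 10 ng. Both groups were tight and far apart, with a log2 difference of 1.87 ± 0.11 (SE; limma adjusted p = 8.55e-05). Hoxd8, the most anterior of these 4 neighbours, had 8040.2, 8138 and 8682 in kidney, against 3038, 2855 and 2970.4 in the reference at 10 ng, a log2 difference of 1.49 ± 0.12 (SE; limma adjusted p = 0.000208). The suffix of this probe set marks it as one that may also match other transcripts. A second Hoxd8 probe set gave 2075, 1842 and 1953 in kidney, against 256, 445 and 232 in the reference at 10 ng. It too was higher in kidney, by 2.70 on the log2 scale (limma adjusted p = 0.000498).

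The genes at both ends of cluster d did not pass the test or were dim. Hoxd3, which shapes the first neck vertebrae, had 44.7, 122 and 52.4 in kidney, against 23.6, 38 and 52.9 in the reference at 10 ng. The groups overlapped, and the difference of 0.80 ± 0.45 on the log2 scale did not pass the test (SE; limma adjusted p = 0.171). Hoxd12, a gene of digit development, had 42, 30.4 and 50.4 in kidney, against 5, 54.9 and 44.7 in the reference at 10 ng, too dim to be tested. Hoxd1 ranged from 1.5 to 82 over all 12 arrays. Hoxd13, needed for digits and genitalia, ranged from 1.4 to 32.4 and was the only one of the 33 genes below background on every array. The order along chromosome 2 in RefSeq is Hoxd13, Hoxd12, Hoxd11, Hoxd10, Hoxd9, Hoxd8, so the 4 genes higher in kidney lie next to each other, and the genes on their posterior side were not detected on all arrays of kidney.

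The promoters of Hoxd8, Hoxd9 and Hoxd10 are shown because these genes were higher together in kidney, that of Hoxd13 at the posterior end of the cluster because it stayed below background, and that of Hoxc4 because it was lower in kidney. Each runs from 250 bases before to 50 bases after the RefSeq start on build GRCm38.p6, on the plus strand. They lie at chr2:74704365-74704664, chr2:74697513-74697812, chr2:74691641-74691940 and chr2:74667975-74668274, and at chr15:103034145-103034444 for Hoxc4. Capitals mark 3 motifs on either strand. They are the CCAAT box, the GC box with the letters GGGCGG, and the TATA box with the letters TATAAA.
Hoxd8: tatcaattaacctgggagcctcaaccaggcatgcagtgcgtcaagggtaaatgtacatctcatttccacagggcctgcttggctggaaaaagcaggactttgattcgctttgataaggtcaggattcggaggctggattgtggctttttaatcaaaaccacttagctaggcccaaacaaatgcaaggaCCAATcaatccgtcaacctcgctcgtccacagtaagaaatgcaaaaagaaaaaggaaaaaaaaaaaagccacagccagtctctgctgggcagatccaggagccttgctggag
Hoxd9: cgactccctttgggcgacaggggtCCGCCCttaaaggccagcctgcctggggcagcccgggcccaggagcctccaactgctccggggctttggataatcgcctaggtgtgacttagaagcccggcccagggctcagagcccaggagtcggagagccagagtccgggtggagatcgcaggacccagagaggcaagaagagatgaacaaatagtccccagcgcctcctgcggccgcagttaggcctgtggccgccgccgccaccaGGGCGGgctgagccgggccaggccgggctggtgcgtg
Hoxd10: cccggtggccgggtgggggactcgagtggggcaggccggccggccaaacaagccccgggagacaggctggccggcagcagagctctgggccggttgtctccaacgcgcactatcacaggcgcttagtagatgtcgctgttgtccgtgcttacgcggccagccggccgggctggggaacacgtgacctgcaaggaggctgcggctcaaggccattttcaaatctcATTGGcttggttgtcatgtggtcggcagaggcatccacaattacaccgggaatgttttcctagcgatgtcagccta
Hoxd13: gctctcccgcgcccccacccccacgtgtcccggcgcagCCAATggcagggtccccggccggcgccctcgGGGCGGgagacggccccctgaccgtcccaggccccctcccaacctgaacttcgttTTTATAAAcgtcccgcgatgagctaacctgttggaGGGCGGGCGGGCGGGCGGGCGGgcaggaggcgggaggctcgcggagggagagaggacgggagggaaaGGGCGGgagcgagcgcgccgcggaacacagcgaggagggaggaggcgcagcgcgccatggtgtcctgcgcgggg
Hoxc4: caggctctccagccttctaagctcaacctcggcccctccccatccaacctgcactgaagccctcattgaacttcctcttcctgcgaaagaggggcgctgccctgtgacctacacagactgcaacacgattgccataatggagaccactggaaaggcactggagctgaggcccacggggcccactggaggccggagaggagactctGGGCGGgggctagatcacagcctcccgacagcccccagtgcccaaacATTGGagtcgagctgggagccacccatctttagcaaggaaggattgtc

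The 5 windows differ in base composition. CG dinucleotides numbered 6 in the Hoxd8 window, 20 in Hoxd9, 22 in Hoxd10, 37 in Hoxd13 and 9 in Hoxc4, against a median of 7 over the 32851 RefSeq promoters in the table. Over the 24 promoters there with a Hox symbol, the median was 14.5. The letters GGGCGG matched at 2 places in the Hoxd9 window and at 1 in Hoxc4. Hoxd13 had 7 matches of GGGCGG, which can overlap each other, and 2 overlapping matches of TATAAA. The letters CCAAT matched once in each of the windows of Hoxd8, Hoxd10, Hoxd13 and Hoxc4. Of all promoters, 37.4% hold CCAAT, 35.7% GGGCGG and 13.6% TATAAA. Of the 24 Hox promoters, 62.5% hold CCAAT, 41.7% GGGCGG and 16.7% TATAAA. Such matches describe the sequence and are not binding sites, and 19 of the 33 genes had an entry in the table.

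Cluster c, on chromosome 15, went the other way. Hoxc13, which drives hair keratin genes in hair and nails, had 1, 3.9 and 10.4 in kidney, against 1117, 1079 and 1222 in the reference at 10 ng. No kidney array reached background and all reference arrays were more than an order of magnitude above it, so Hoxc13 was at least 33.8-fold lower in kidney (limma adjusted p = 6.52e-05). Hoxc4, involved in forming the oesophageal muscle, had 182, 214 and 240.1 in kidney, against 939, 952 and 935 in the reference at 10 ng. The log2 difference was -2.14 ± 0.15 (SE; limma adjusted p = 0.000131), with all kidney arrays above background. Hoxc8, a gene of brachial motor neurons and the thoracic skeleton, had 104, 169 and 108 in kidney, against 664, 509.8 and 532 in the reference at 10 ng. It was lower in kidney by a log2 difference of -2.16 ± 0.23 (SE; limma adjusted p = 0.000703).

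Hoxc9, which sets thoracic motor neuron identity, had 115, 139.6 and 98.9 in kidney, against 267, 235 and 311 in the reference at 10 ng. The groups did not overlap and the log2 difference was -1.18 ± 0.19 (SE; limma adjusted p = 0.00292). The other genes of cluster c were not called at 10 ng. Hoxc10, a gene of the lumbar spinal cord, had 651, 576 and 630.2 in kidney, against 397, 552 and 413 in the reference at 10 ng. Its kidney arrays all lay above its reference arrays, by 0.46 on the log2 scale (limma adjusted p = 0.06). Hoxc6, which marks brachial motor neurons, had 188, 332 and 131 in kidney, against 122, 115 and 114 in the reference at 10 ng (limma adjusted p = 0.0975). With quantile normalization or with arrays centred on their medians, Hoxc6 and Hoxc10 were called higher. The 2 other probe sets of Hoxc6 were too dim to be tested, and their groups overlapped. Hoxc5 had 13.5, 211 and 47.2 in kidney, against 123, 81.6 and 121 in the reference at 10 ng. Its kidney arrays spread from below background to above every reference array, and no call was made (limma adjusted p = 0.394).

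Cluster a, on chromosome 6, had 4 genes called higher in kidney, Hoxa5, Hoxa7, Hoxa9 and Hoxa10, and 1 called lower, Hoxa11. Hoxa9, a gene of blood progenitors, had 1463, 1154 and 969.7 in kidney, against 277, 220.2 and 409 in the reference at 10 ng. The groups were well apart, with a log2 difference of 1.998 ± 0.28 (SE; limma adjusted p = 0.00184). A second Hoxa9 probe set gave a like difference of 1.93 (limma adjusted p = 0.000736). Hoxa10, which patterns the uterus and vas deferens, had 8119, 6491 and 6575 in kidney, against 3147, 2896 and 3038 in the reference at 10 ng. It was higher by 1.21 ± 0.14 on the log2 scale (SE; limma adjusted p = 0.000948), while its second probe set was too dim to be tested and overlapped between the groups. With the mean of its probe sets in place of the brightest one, Hoxa10 was not called.

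Hoxa5, needed for lung development, had 333, 353 and 386 in kidney, against 199.6, 215 and 207 in the reference at 10 ng. The log2 difference was 0.77 ± 0.12 (SE; limma adjusted p = 0.00309), and a second probe set was higher by 1.61 (limma adjusted p = 0.0132). The suffix of the first marks possible cross-hybridization. Hoxa7 had 195, 112 and 224 in kidney, against 100.2, 94.6 and 64.9 in the reference at 10 ng, a log2 difference of 0.96 ± 0.31 (SE; limma adjusted p = 0.0394). The call of Hoxa7 was lost with no filter on dim probe sets, with the replicate block (limma adjusted p = 0.0814), without kidney array 1 or 3, and without any 1 of the reference arrays. Hoxa11, the paralogue of Hoxd11 in kidney formation, was the only gene of cluster a called lower against the reference at 10 ng. It had 82.1, 55.5 and 47.4 in kidney, against 102, 106 and 108 in the reference at 10 ng, a log2 difference of -0.77 ± 0.22 (SE; limma adjusted p = 0.0234). That call was lost with no filter, with the replicate block (limma adjusted p = 0.0515), with quantile normalization and with centred arrays. It was also lost without kidney array 2 or 3, and without any 1 of the reference arrays. The sign of the Hoxa11 difference changed with the input of the reference. Against 3 ng it was -0.51 and not called (limma adjusted p = 0.24). Against 0.3 ng it was 1.47, without overlap, and not called (limma adjusted p = 0.0714). There 1 of 3 reference arrays was above background. With 1 fit of all arrays (limma adjusted p = 0.0168), or without reference array 3 at 0.3 ng (limma adjusted p = 0.0132), Hoxa11 was called higher there.

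Both anterior genes of cluster a were not called, and Hoxa4 and Hoxa13 were dim. Hoxa2, which specifies the second branchial arch, had 43.4, 11.8 and 39.5 in kidney, against 77.9, 99.1 and 52.5 in the reference at 10 ng. The groups did not overlap, but the difference of -1.29 ± 0.49 on the log2 scale missed the threshold (SE; limma adjusted p = 0.0617). Hoxa2 was called lower with signals under background raised to it. Hoxa3, a gene of the thymus and parathyroid, had 1999, 1846 and 2186 in kidney, against 1807, 1962 and 1793 in the reference at 10 ng. These groups overlapped, with a log2 difference of 0.11 ± 0.13 (SE; limma adjusted p = 0.47), on a probe set that may match other transcripts. A second Hoxa3 probe set was not called either, with a log2 difference of -0.08 (limma adjusted p = 0.657), and 2 more were too dim to be tested. Hoxa4 was below the brightness needed for a test, at 65.2, 47.4 and 55.2 in kidney, against 48.7, 33.4 and 32.5 in the reference at 10 ng. Hoxa13, a gene of the digits and the genital tubercle, was not above background on all arrays of any group and ranged from 1.8 to 43.

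Cluster b, on chromosome 11, was higher in kidney at paralogues 2, 4, 5, 6 and 9. Hoxb6, a gene of the lateral plate mesoderm, had 979, 841 and 689 in kidney, against 102, 107 and 147 in the reference at 10 ng. It differed more than any other gene of the cluster that was higher, by 2.78 ± 0.21 on the log2 scale (SE; limma adjusted p = 0.000193). Hoxb5, which acts in enteric neurons, had 299.6, 279.7 and 317 in kidney, against 93.6, 92.1 and 58.5 in the reference at 10 ng. The kidney arrays were all above the reference arrays, by 1.85 ± 0.21 (SE; limma adjusted p = 0.000838). Hoxb2, which acts in the hindbrain below Hoxb1, was the only anterior gene called. It had 88.8, 134 and 138 in kidney, against 53.6, 39 and 35.9 in the reference at 10 ng, a log2 difference of 1.40 ± 0.24 (SE; limma adjusted p = 0.00392).

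Hoxb9, which patterns the ribs with its paralogues, had 280.4, 319.8 and 346 in kidney, against 119, 151 and 166 in the reference at 10 ng. The log2 difference was 1.10 ± 0.18 (SE; limma adjusted p = 0.00303), with no overlap. Hoxb4, known for the growth of blood stem cells, had 295, 216 and 172 in kidney, against 115, 84.4 and 127 in the reference at 10 ng. It was higher by 1.02 ± 0.26 (SE; limma adjusted p = 0.0165). Hoxb3, a hindbrain gene, had 397, 503 and 774 in kidney, against 610, 594 and 490.2 in the reference at 10 ng. Its groups overlapped and the log2 difference was -0.07 ± 0.27 (SE; limma adjusted p = 0.844). A second Hoxb3 probe set, at 87.2, 93.6 and 126.9 in kidney, against 50.6, 66.6 and 64.2 in the reference at 10 ng, was called higher by 0.72 (limma adjusted p = 0.0228), so the 2 probe sets disagree.

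Hoxb13, a gene of the prostate and the tail vertebrae, had 11.8, 5.9 and 3.7 in kidney, against 47.2, 47.6 and 27.8 in the reference at 10 ng. No kidney array and 2 of the 3 reference arrays were above background, so it was at least 1.18-fold lower in kidney (limma adjusted p = 0.00343). With signals under background raised to it, that call was lost (limma adjusted p = 0.13). The reference means of Hoxb13, 40.9 at 10 ng and 46.5 at 3 ng, were under the 65.4 needed for a test. It entered the tests only through the reference at 0.3 ng. Hoxb1, which gives the fourth hindbrain segment its identity, had 7.2, 12 and 30.4 in kidney, against 50.4, 71.7 and 34.9 in the reference at 10 ng. It was at least 1.49-fold lower in kidney on this level, with no test. Hoxb7 was not above background on all arrays of any group and ranged from 2.6 to 50.3.

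**Figure D2:**
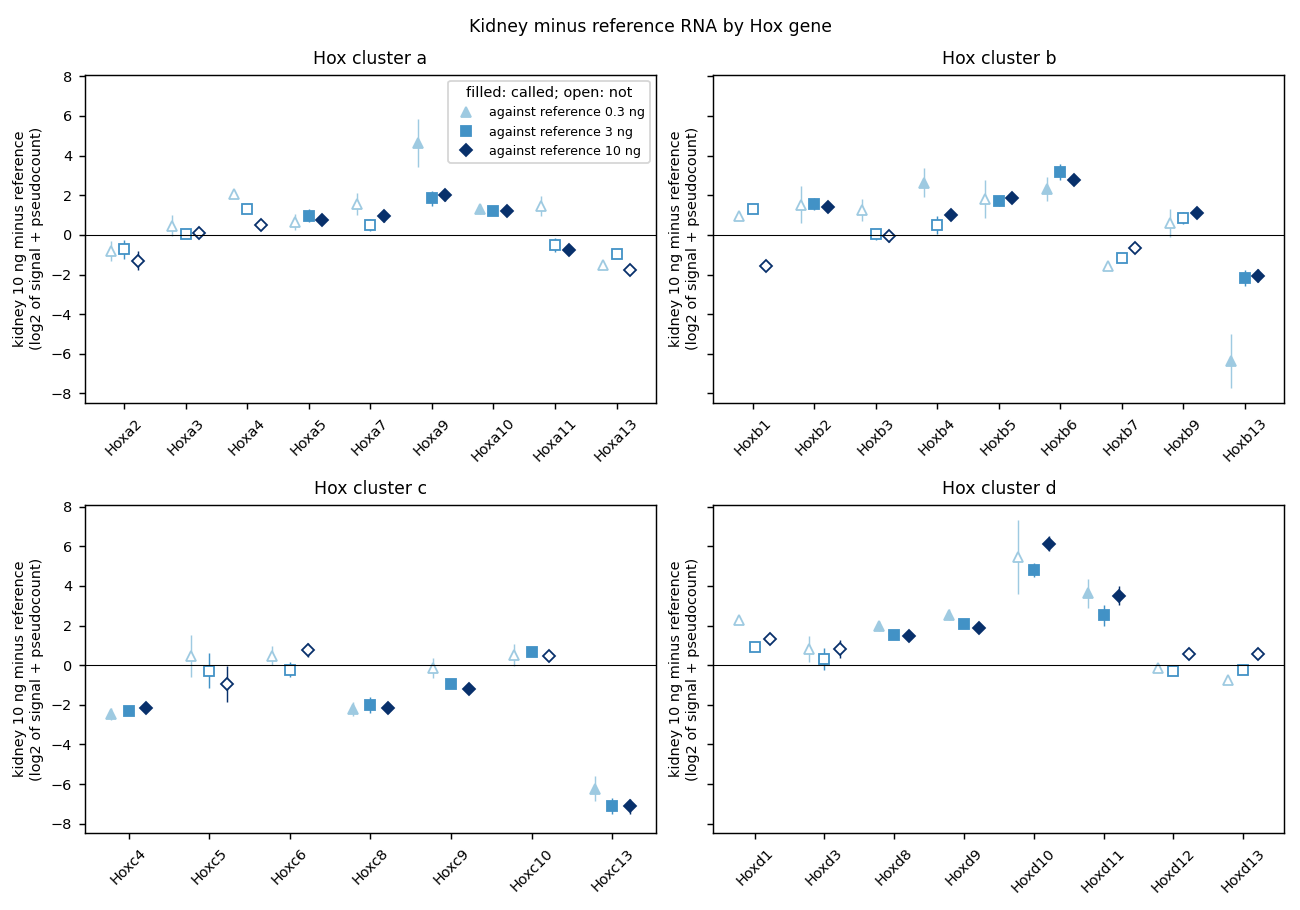
Difference of kidney at 10 ng minus the reference at 0.3, 3 and 10 ng for each Hox gene, in log2 of signal plus pseudocount, with SE bars where a gene was tested. Filled symbols are called at an adjusted p of 0.05 and open symbols are not, or were not tested. Hoxd8 to Hoxd11 lie above 0 and Hoxc4, Hoxc8 and Hoxc13 below 0 at every input of the reference.

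Kidney at 10 ng was also set against the reference at lower inputs, where RNA source and input change together and the kidney arrays are shared. Against 3 ng, 11 Hox genes were higher and 5 lower, among 56.7% called of all tested probe sets (21.8% higher and 34.9% lower). Against 0.3 ng, 7 were higher and 4 lower, among 34.8% called (18.1% higher and 16.7% lower). Hoxa9, Hoxa10, Hoxb6, Hoxd8, Hoxd9 and Hoxd11 were called higher at each of the 3 inputs, 6 genes in all, and Hoxb13, Hoxc4, Hoxc8 and Hoxc13 were called lower, 4 in all. Without kidney array 1, only 2 genes were called higher against 0.3 ng, without array 3 there were 3, and without array 2 there were 4.

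The 6 genes called higher at each input are described first. Hoxd9 had 1198, 1874 and 1073 in the reference at 0.3 ng and 1422, 2039 and 2129 at 3 ng, all below the kidney arrays. Its log2 differences, kidney minus reference, were 2.55, 2.10 and 1.87 at 0.3, 3 and 10 ng (limma adjusted p = 0.00189, 0.000488 and 8.55e-05 in that order). Hoxd8 followed the same order, with 1989, 1673 and 2715 at 0.3 ng and 2496, 2809.6 and 3249.5 at 3 ng and differences of 1.99, 1.55 and 1.49. The second Hoxd8 probe set had 81.9, 55.5 and 47.5 in the reference at 0.3 ng and 305.5, 135.5 and 362.5 at 3 ng. Its differences from kidney were larger, at 4.94, 2.96 and 2.70 for 0.3, 3 and 10 ng, and between 0.3 ng and 10 ng of the reference it was not called (limma adjusted p = 0.0698). Hoxd11 remained below background on every reference array, at 21.5, 3 and 1 at 0.3 ng and 27.8, 18.7 and 8.5 at 3 ng. Hoxa10 had 3047, 3276 and 2287 at 0.3 ng and 2539.8, 3164 and 3397 at 3 ng, and its differences were 1.31, 1.22 and 1.21. Its reference arrays lay below the kidney arrays at every input. Hoxa9 was unsteady, with 4.1, 246 and 49.7 at 0.3 ng and 200, 362 and 481 at 3 ng. Its difference against 0.3 ng was 4.64 ± 1.22 (SE; limma adjusted p = 0.0327), and that call was lost without any 1 of the kidney arrays, with the replicate block, or without reference array 3. Without reference array 1 or 2 it was 3.35 or 5.84. Hoxb6 had 62.8, 274 and 249 at 0.3 ng and 48.8, 142 and 99 at 3 ng, with differences of 2.31, 3.17 and 2.78. Its call against 0.3 ng was lost without any 1 of the kidney arrays (limma adjusted p = 0.103, 0.0961 and 0.0809), with no filter and with the replicate block, and without reference array 1 the difference was 1.65. That of Hoxa10 was lost without kidney array 1 or 3, with the block and with the mean of its probe sets, and that of Hoxd11 without kidney array 1. Hoxb4 was also called against 0.3 ng, by 2.64, but not without any 1 of the kidney arrays or reference array 2, with no filter, with quantile normalization or with centred arrays. Without reference array 1 or 3 its difference was 3.29 or 1.88. Against 3 ng the call of Hoxa5 was lost with the block (limma adjusted p = 0.0597), with no filter, with the mean of its probe sets, without any 1 of the kidney arrays, and without reference array 1 or 3.

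Hoxd10 had the widest ratio of highest to lowest array within the 0.3 ng group when dim signals are set to background. These arrays gave 9.8, 16.7 and 1708, and those at 3 ng gave 82.9, 99.3 and 209. The third array at 0.3 ng was the only reference array of any input above 1000, and it still lay below the kidney arrays. Against 0.3 ng the difference was 5.47 ± 1.87 and not called (SE; limma adjusted p = 0.0699). Without that array both remaining reference arrays were below background, and Hoxd10 was at least 103-fold higher in kidney (limma adjusted p = 0.000335). Against 3 ng it was 4.81 ± 0.35 (SE; limma adjusted p = 0.000221).

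The 4 genes called lower at each input, Hoxb13, Hoxc4, Hoxc8 and Hoxc13, had no kidney array that reached any reference array. For Hoxb13, a reference array at 10 ng (27.8) and another at 3 ng (28.6) were below background, where signals have no order. Hoxc13 had 403, 415 and 1335 in the reference at 0.3 ng and 1275, 1203 and 899 at 3 ng. It was at least 18-, 33.1- and 33.8-fold lower in kidney against 0.3, 3 and 10 ng. Hoxc4 had 878, 1595 and 1196 at 0.3 ng and 1002, 976 and 1230.2 at 3 ng, and its log2 differences were -2.47, -2.32 and -2.14. All 9 reference arrays of Hoxc4 lay above all kidney arrays. Hoxc8 had 642, 414 and 768 at 0.3 ng and 879, 359 and 401 at 3 ng, with differences of -2.22, -1.99 and -2.16. Hoxc9 had 72.8, 258 and 115 at 0.3 ng and 200.4, 231 and 245 at 3 ng. It was lower in kidney against 3 ng (-0.92, limma adjusted p = 0.0076) and overlapped at 0.3 ng (-0.15, limma adjusted p = 0.832). Hoxc10, with 1006, 278 and 286 at 0.3 ng and 391, 419.5 and 357 at 3 ng, was the 1 gene of cluster c called higher, against 3 ng (0.67, limma adjusted p = 0.00978). Hoxb13 was at least 25.5-fold lower in kidney than in the reference at 0.3 ng (limma adjusted p = 0.0175), a call lost without any 1 of the kidney arrays. That bound was 60.4-fold without reference array 1 and 8.99-fold without reference array 2. Against 3 ng its call was lost when dim signals were set to background.

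The reference inputs were then set against each other, a comparison in which the labels give the same RNA in different amounts. No Hox gene was called between any 2 inputs by limma, and 3 of 26 had an unadjusted p under 0.05 for 3 ng against 10 ng, 3 for 0.3 ng against 10 ng and 4 for 0.3 ng against 3 ng. Of all tested probe sets 0% were called for 3 ng against 10 ng, 0.796% for 0.3 ng against 10 ng and 0.241% for 0.3 ng against 3 ng. At an unadjusted p under 0.05 the shares of all tested probe sets were 10.1%, 15.5% and 13.4% in the same order.

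The genes under the unadjusted threshold did not share 1 direction. Hoxa11 had 10.3, 15 and 42.3 at 0.3 ng and 55.7, 102 and 116 at 3 ng, against 102, 106 and 108 at 10 ng. Its difference of 0.3 ng minus 10 ng was -2.24 ± 0.47 on the log2 scale (SE; limma adjusted p = 0.116). It was called with signals raised to background, without the third array at 0.3 ng, and with all 12 arrays in one fit. Hoxb3 had 106, 263 and 388 at 0.3 ng and 540.2, 565 and 484 at 3 ng, with a difference of 0.3 ng minus 10 ng of -1.33 (limma adjusted p = 0.288). Hoxb13 had its highest signals at the lowest input, with 153, 6897 and 598 at 0.3 ng and 70.9, 28.6 and 39.9 at 3 ng. The 0.3 ng arrays span more than a factor of 10, and the difference of 4.31 ± 1.34 against 10 ng did not pass the test (SE; limma adjusted p = 0.222). Hoxb4 had 86.5, 38 and 8.8 at 0.3 ng and 191, 81 and 245 at 3 ng, a difference of 0.3 ng minus 3 ng of -2.14 (limma adjusted p = 0.342).

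Between 3 ng and 10 ng, the genes under the unadjusted threshold were Hoxc5, Hoxc6 and Hoxd10. Hoxc6 had 129, 232 and 98.8 at 0.3 ng and 188, 282 and 251 at 3 ng, with a difference of 3 ng minus 10 ng of 0.99 (limma adjusted p = 0.297). Hoxc5 had 31.3, 17.5 and 95 at 0.3 ng and 59.7, 63.5 and 75.4 at 3 ng, a difference of -0.66 (limma adjusted p = 0.418). Hoxd10 differed by 1.32 (limma adjusted p = 0.466). None of these was called.

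**Figure D3:**
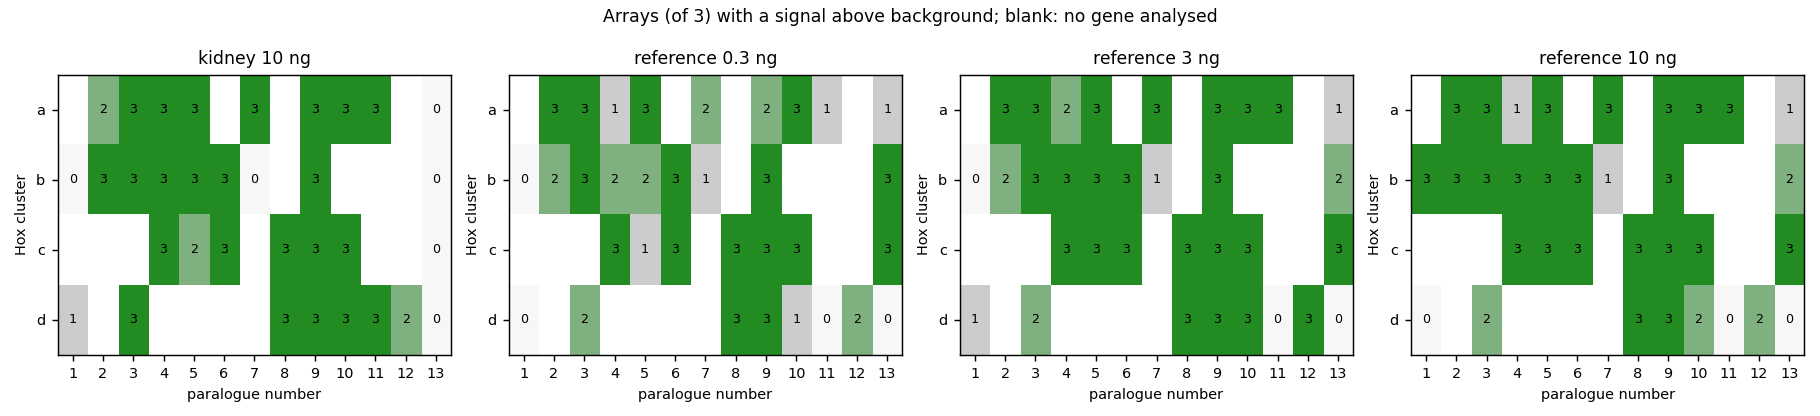
Number of arrays out of 3 with a signal above 33.65 for each Hox gene, by cluster (rows) and paralogue number (columns), in kidney and in the reference at 0.3, 3 and 10 ng. Blank squares have no gene analysed. Kidney has 3 of 3 arrays for Hoxd11 and 0 of 3 for Hoxc13 and Hoxb13, and the reference at 0.3 ng has fewer genes at 3 of 3 than at 3 or 10 ng.

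Detection on all 3 arrays gave a second view of the clusters. It held for 23 of 33 Hox genes in kidney, and in the reference for 16 at 0.3 ng, 23 at 3 ng and 23 at 10 ng. Of all probe sets, the shares were 51.5% in kidney, and 44.8%, 55.6% and 55.4% in the reference in the same order. In cluster d the count was 5 of 8 in kidney, and 2, 4 and 2 in the reference at 0.3, 3 and 10 ng. In total 29 genes were detected on all arrays of at least 1 group, and Hoxa13, Hoxb7, Hoxd1 and Hoxd13 in none, 4 genes in all.

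Some of the genes detected in the reference at 10 ng were dim at 0.3 ng. Hoxa7 had 22.9, 85.7 and 78.9 at 0.3 ng and 100.2, 126 and 135 at 3 ng. Hoxb5 had 363, 68.8 and 20.3 at 0.3 ng and 66.2, 108 and 101 at 3 ng, and Hoxb2 had 6, 122 and 57 at 0.3 ng and 24.8, 49 and 44.2 at 3 ng. In each of these 3 genes, at least 1 array at 0.3 ng lay below background and another above it. Hoxb1 behaved differently from them. It had 5.1, 6 and 5.4 at 0.3 ng and 2.5, 5.6 and 2.6 at 3 ng, so it was above background on all arrays of the reference at 10 ng only. Hoxa4 had 37.3, 1.2 and 9.5 at 0.3 ng and 2.4, 40 and 46.9 at 3 ng.

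The remaining genes were above background on at least 2 of 3 arrays at both lower inputs. Hoxa3 had 661, 1845 and 2528 in the reference at 0.3 ng and 1903, 2205 and 1712 at 3 ng, and Hoxa2 had 39.8, 50.8 and 66.5 at 0.3 ng and 68.2, 36.8 and 45.7 at 3 ng. Hoxa5 had 169, 163 and 399.5 at 0.3 ng and 131, 291 and 151 at 3 ng. Hoxb9 was above background on every array, with 64.5, 405 and 323 at 0.3 ng and 262, 159 and 119 at 3 ng. Hoxd12, dim in all groups, had 49.8, 51.9 and 33.1 at 0.3 ng and 38.8, 65.9 and 49.4 at 3 ng, and Hoxd3 had 13.3, 43.8 and 69.3 at 0.3 ng and 33.2, 107 and 41.2 at 3 ng.

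**Figure D4:**
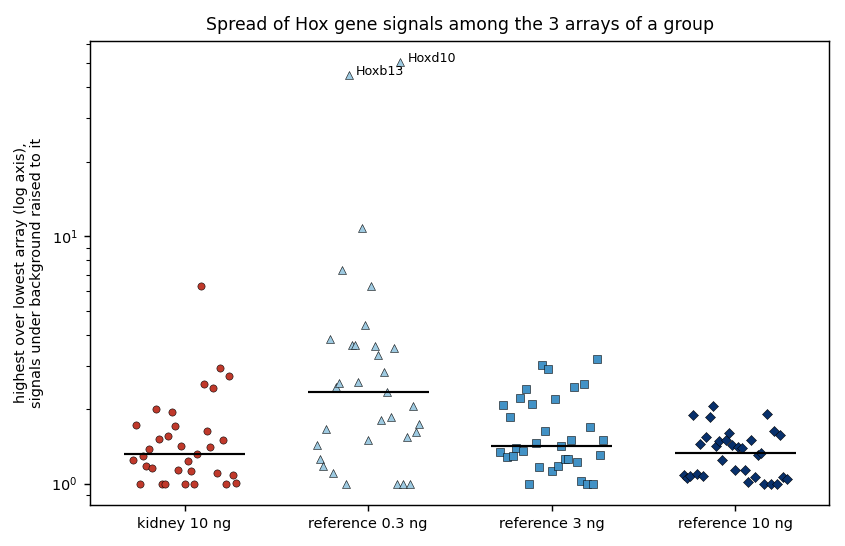
Highest over lowest array within a group for each of the 33 Hox genes, on a log axis, with signals under background raised to it; each point is a gene and the bar is the median. The medians are 1.32 in kidney, and 2.34, 1.42 and 1.32 in the reference at 0.3, 3 and 10 ng, and Hoxd10 and Hoxb13 stand highest at 0.3 ng.

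The spread among arrays was wider at the lowest input. The highest array was over 3 times the lowest for 1 of 33 Hox genes in kidney, and in the reference for 12 at 0.3 ng, 2 at 3 ng and 0 at 10 ng. The shares of all probe sets were 2.8% in kidney, and 21%, 5.75% and 2.1% in the reference in the same order. The widest ratio at 0.3 ng was 50.7, of Hoxd10. The median SD of log2 values of the Hox genes was 0.38 in kidney, and 0.97, 0.47 and 0.28 in the reference at 0.3, 3 and 10 ng. Pairs of arrays correlated across the Hox genes (Pearson's r of log2 values) at 0.70 to 0.81 at 0.3 ng and at 0.95 to 0.96 at 10 ng in the reference. These describe genes on arrays of 1 RNA, and genes are not independent replicates. The tests with the 0.3 ng arrays assume an equal spread in both groups, which these values do not show.

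Genes that work with Hox proteins or set their activity were compared between kidney and the reference at 10 ng, where 37.2% of all tested probe sets were lower and 22.9% higher. Of 8 TALE homeodomain cofactors, which bind DNA with Hox proteins, 0 were higher, 5 lower and 3 not called, with a median of -0.90 on the log2 scale. Meis1 was 45.5 ± 3.61 in kidney, against 319.9 ± 43.8 in the reference at 10 ng (mean ± SD, n = 3 arrays each), a log2 difference of -2.71 (limma adjusted p = 7.16e-05). Pbx4 and Meis2 differed by -2.53 and -1.46. Of 15 Polycomb genes, which keep Hox genes silent, 1 was higher, 8 lower and 6 not called, with a median of -0.77. Ezh2, an enzyme that methylates histone H3 at lysine 27, differed by -3.90 on the log2 scale (limma adjusted p = 3.26e-05). It was 105 ± 19.0 in kidney, against 1598 ± 73.6 in the reference at 10 ng (mean ± SD, n = 3 arrays each). Its partner Eed differed by -1.91 and Pcgf2 by -1.46. Jarid2 was the 1 Polycomb gene that was higher, by 0.77. Ezh1, not called, had 158.6, 158.3 and 260.6 in kidney, against 132.2, 105.9 and 121.3 in the reference at 10 ng. Against the reference at 3 ng, 2 of the 15 Polycomb genes were higher and 9 lower. Of all tested probe sets, 21.8% were higher and 34.9% lower there.

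Of 8 Trithorax and related genes, which keep Hox genes active, 0 were higher, 5 lower and 3 not called, with a median of -0.85. Ash2l, Dot1l and Kdm6a differed by -1.59, -1.30 and -1.29. None of the 6 Cdx and ParaHox genes, relatives of the Hox genes, was bright enough to be tested. Their summed signal was 114 to 142 in kidney, against 76.8 to 115.3 in the reference at 10 ng. Of 6 partners and targets of the paralogue 11 genes in nephron progenitors, 1 was higher, 4 lower and 1 too dim to be tested, with a median of -1.57. Sall1 was higher, at 8851 ± 153 in kidney, against 3526 ± 655 in the reference at 10 ng (mean ± SD, n = 3 arrays each; limma adjusted p = 0.00133). Osr1 and Eya1, which act in those progenitors, were at least 3.25- and 5.82-fold lower in kidney. Gdnf was also lower, with 3.5, 10.5 and 5.2 in kidney, against 44, 96.2 and 29.1 in the reference at 10 ng. Against the reference at 0.3 ng, 16.7% of all tested probe sets were lower. There 1 of 8 cofactors, 5 of 15 Polycomb and 3 of 8 Trithorax and related genes were lower in kidney and 0 higher. At 10 ng the medians stand beside a median of -0.34 over all tested probe sets and -0.22 over all probe sets. The median of the 6 partners and targets includes the 1 too dim to be tested.

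The 2 RNAs also differed in markers of the cells they came from. The 5 measured genes that mark cell division were each lower in kidney, with a summed signal of 492 to 718, against 12487 to 14854 in the reference at 10 ng. All 7 fibroblast and mesenchyme markers were lower, at 6631 to 7062 summed in kidney, against 40997 to 46159 in the reference at 10 ng. Of 4 myoblast markers 3 were lower and 1 too dim to be tested, at 60 to 149 summed in kidney, against 1563 to 1714 in the reference at 10 ng. Of 5 pluripotent and germ cell markers, 2 were lower, 1 not called and 2 too dim to be tested, at 70.4 to 185.3 summed in kidney, against 1401 to 1534 in the reference at 10 ng. Of 6 blood cell markers 2 were higher, 3 lower and 1 not called, at 19684 to 20913 summed in kidney, against 14954 to 15760.4 in the reference at 10 ng. The adult haemoglobin gene Hbb-b2 had 8853, 8634 and 8751 in kidney, against 5.8, 3.3 and 7.7 in the reference at 10 ng, and was named after its values were seen. Without it the sum of the other 5 was lower in kidney, at 10933.5 to 12279.6, against 14948.3 to 15757.1 in the reference at 10 ng. On no kidney array were 2 of the 5 division genes (Bub1 and Plk1), 2 of the 4 myoblast markers (Myf5 and Myog) and 3 of the 5 pluripotent markers (Dppa2, Pou5f1 and Zfp42) above background. Of those 3 pluripotent markers, Pou5f1 and Zfp42 were below background on every reference array as well. Dppa2 had 0.8, 1.2 and 23.1 in kidney, against 1131.6, 1311 and 1218.1 in the reference at 10 ng. It made up most of the pluripotent sum in that reference group. The part of these cells in the Hox differences was not tested.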

How the data were processed

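The authors deposited a linear intensity for each of 45101 probe sets on each of 12 arrays. The values show that every array has a 2% trimmed mean of 500. Which software, amplification and probe summary the authors used is not given in the sources used here. Groups, inputs and replicate numbers come from the sample titles.

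From the deposited intensities, log2 values were taken after adding 3.9, the 10th percentile of positive values. Control probe sets (64) were not tested. Of the others, 27022 entered the tests, those whose brightest group mean (of 4, on the log2 scale) exceeded the 40th percentile of all such values, or 65.4 in signal. Gene symbols came from the probe annotation: 34945 probe sets named 1 gene, 932 several and 9160 none. Of these symbols, 34741 were looked up by gene ID in the RefSeq table of GRCm38.p6 and 0 changed. Hox genes beyond the 33 are not analysed here, and 3 probe sets naming 2 Hox genes were left out. The 33 genes had 48 probe sets, with several for 11 genes. A gene was represented by its brightest probe set, by mean log2 over the 12 arrays. Other probe sets that were tested are given against the reference at 10 ng.

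The lmFit and eBayes functions of limma 3.58.1 (R 4.3.3) were run on the 2 groups of each comparison alone, two-sided, with Benjamini-Hochberg adjusted p-values over 27022 probe sets computed here from the deposited intensities, and a threshold of 0.05. Where no array of the dimmer group exceeded background, a fold is a lower bound: the mean log2 signal of the brighter group against the background. Members with all arrays of at least 1 group above background are given per array, the others by their range. From each other list up to 3 called genes with the largest change are named, with Sall1 and Jarid2 added as the 1 gene higher in their lists. The fits were tested on simulated data. Alternatives were other pseudocounts, a floor at background, other filters, quantile normalization, centring, 1 fit of all arrays, the replicate number as a block, leaving out each array, and the mean of a gene's probe sets. The members and lists were chosen with earlier results of these data known. Figures were drawn with matplotlib 3.10.9.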

Additional observations from a re-analysis of the deposited data

How the results depend on the processing

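All alternatives were run. Fitted with all arrays in one fit, kidney against the reference gave 6 genes higher at 10 ng, 6 higher and 3 lower at 3 ng, and 11 higher at 0.3 ng. The same fit gave 2 Hox genes for the reference at 0.3 ng against 10 ng (Hoxa11 and Hoxb13) and 1 against 3 ng (Hoxa11). That fit pools the wider spread of the 0.3 ng arrays. With signals raised to background, 1 gene was called for 0.3 ng against 10 ng. The replicate numbers do not pair the arrays: deviations of same-numbered arrays correlated at -0.06 to 0.02, and 1 of 12 arrays correlated best with its own number. With the replicate block, kidney against 0.3 ng gave 4 genes higher, and against 10 ng and 3 ng it ended the calls of Hoxa7, Hoxa11 and Hoxa5. Leaving out each array in turn gave 2 to 9 genes higher for kidney against 0.3 ng, and 0 to 1 gene for the reference at 0.3 ng against 10 ng. For kidney against 10 ng it gave 12 to 13 higher and 5 to 6 lower, and against 3 ng 10 to 11 higher and 5 lower. Other counts stayed within 1.5 times. The uncalled Hoxb3 changed sign for kidney against 10 ng, to 0.033 with quantile normalization, 0.18 with centred arrays, 0.33 with the mean of its probe sets and 0.15 without kidney array 1, the highest of the fits that leave out 1 array; their lowest was -0.33. The uncalled Hoxa3 changed sign to -0.30 with the mean of its probe sets. The cause was not tested. Signals under background have no order. The filter on the brightest group left 7 Hox genes too dim for a test, among them Hoxa4, whose kidney arrays were all above background.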

Other observations

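The genes that flank the Hox clusters did not all move with them. Beside cluster d, which had 4 genes higher in kidney and 0 lower than in the reference at 10 ng, 3 of 4 measured neighbours were tested. Of these, 2 were lower and 0 higher. Lnpk was 888 ± 272 in kidney, against 3457 ± 206 in the reference at 10 ng (mean ± SD, n = 3 arrays each), a log2 difference of -2.00 (limma adjusted p = 0.00121), and Mtx2 differed by -1.41. Beside cluster a, 4 of 5 neighbours were tested, with 2 higher and 1 lower. Hibadh, an enzyme of valine breakdown, differed by 2.91, Skap2 by -1.75 and Tax1bp1 by 0.48. Beside cluster b, 3 of 6 were bright enough to be tested, and 1 was lower (Skap1, -2.22). Beside cluster c, 3 of 5 were lower, Hnrnpa1 by -2.79, Smug1 by -0.93 and Cbx5 by -0.92. The medians of the neighbours of clusters a, b, c and d were -0.23, -0.17, -0.92 and -0.87, and they include the neighbours too dim to be tested. They stand beside -0.34 over all tested probe sets, of which 22.9% were higher and 37.2% lower, and -0.22 over all probe sets.

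Retinoic acid, which sets Hox activity in the embryo, acts through nuclear receptors, and 10 genes of its receptors and enzymes were measured. In kidney against the reference at 10 ng, 3 were higher, 3 lower, 2 not called and 2 too dim to be tested, beside 22.9% higher and 37.2% lower of all tested probe sets. Cyp26b1 and Cyp26a1, which both break down retinoic acid, differed in opposite directions. Cyp26b1 was 161 ± 29.6 in kidney, against 29.5 ± 22.5 in the reference at 10 ng (mean ± SD, n = 3 arrays each), a log2 difference of 2.69 (limma adjusted p = 0.0224). Cyp26a1 was at least 1.35-fold lower in kidney (limma adjusted p = 0.000672). The receptor gene Rarb was at least 2.73-fold higher in kidney (limma adjusted p = 0.0107).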
